A study of Mus musculus with 8 samples.

Results

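The genes described are 10 transcripts of the integrated stress response and of the serine and folate metabolism that it controls, measured in gastrocnemius (GAS) muscle after prolonged knockdown of MYTHO. They are a list of gene names, and the rule that picks their rows uses no difference between the groups. The genes are *Atf4*, *Ddit3*, *Trib3*, *Chac1*, *Fgf21*, *Gdf15*, *Asns*, *Psat1*, *Shmt2* and *Mthfd2*, out of 22664 gene symbols in the deposited table, and they occupy 11 of its 22206 probe sets. A probe set is the group of short array probes that reads 1 gene. *Ddit3* has 2 probe sets, and the brighter of them was used. All 10 genes were marked as expressed in both groups by the authors' software, as were 95.6% of all probe sets, so the mark says little about them.

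Male C57/Bl6j mice aged about 10 weeks received an adeno-associated virus (AAV) in the GAS muscle. In the MYTHO-KD group (4 muscles) it carried a short hairpin RNA against *D230025D16Rik*, the gene that encodes MYTHO, driven by the U6 promoter. In the scramble group (4 muscles) it carried a scramble hairpin behind the same promoter, and this virus was given to the opposite leg. Muscles were taken 12 weeks later, at 22 weeks of age, and Clariom S Mouse arrays were used to measure their RNA. The U6 promoter is active in most cell types, the virus was of a serotype that favours muscle fibres, and the RNA came from whole muscle. The deposited table gives an average log2 signal and a standard deviation (SD) for each group, so the values of single muscles are not shown here and whether the groups overlap cannot be read from it. The brightness of a probe set also depends on its probes, so signals were compared between groups and not between genes.

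The integrated stress response is the shared outcome of several alarms inside the cell. Kinases that sense unfolded protein, amino acid shortage, double-stranded RNA or mitochondrial damage phosphorylate the initiation factor eIF2, which slows protein synthesis as a whole but favours translation of the *Atf4* mRNA. ATF4 then switches on genes for amino acid synthesis and transport, for redox defence and for its own restraint. In skeletal muscle the response is best known from mitochondrial myopathies, in which fibres release the hormones FGF21 and GDF15 and raise the enzymes of serine synthesis and of the mitochondrial folate cycle. Because ATF4 is controlled mainly by translation, its mRNA need not follow its protein.

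The targeted gene, *D230025D16Rik*, averaged 10.02 in scramble and 7.71 in MYTHO-KD muscles on the log2 scale, with deposited SDs of 0.37 and 0.66. The knockdown left 20.2% of the scramble signal (log2 difference -2.31, standard error 0.304, adjusted p = 0.0138 in limma's moderated test). Fibre markers were present in both groups, with *Acta1*, *Myh4* and *Atp2a1* at 19.93 (log2), the top of the scale.

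ATF4 reaches many of its targets through the C/EBP-ATF response element, whose letters can be written TGATGNAAN, with N for any base. These letters were searched on both strands in the RefSeq promoter windows of GRCm38.p6, the same build as mm10, from 250 bases before to 50 bases after each start site. All 10 genes matched, with 12 windows, and 4 of them held the letters: *Chac1*, *Asns*, *Fgf21* and *Trib3*. Among all 27025 genes with a window, 4.5% held them, as did 3.95% of the 32851 windows. The stretches around them are shown because such letters are how ATF4 is known to find its targets, together with that of *Atf3*, a stress factor of the wider pathway. They run 5′ to 3′ on the strand of the gene, with the matching letters in capitals; a match on the opposite strand therefore reads as the reverse complement.
Chac1: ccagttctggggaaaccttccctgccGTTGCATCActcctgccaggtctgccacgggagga
Asns: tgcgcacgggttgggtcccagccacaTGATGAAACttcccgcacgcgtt
Fgf21: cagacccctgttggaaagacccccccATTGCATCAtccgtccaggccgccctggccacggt
Trib3: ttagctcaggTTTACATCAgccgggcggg
Atf3: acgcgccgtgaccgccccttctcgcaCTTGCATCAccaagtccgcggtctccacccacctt
The stretch of *Chac1* is chr2:119351022-119351082 on the plus strand, that of *Asns* chr6:7693210-7693258, that of *Fgf21* chr7:45615596-45615656, that of *Trib3* chr2:152344029-152344057 and that of *Atf3* chr1:191183410-191183470, the last 4 on the minus strand. The first capital lies 194 bases before the start site in *Chac1*, 23 in *Asns*, 140 in *Fgf21* and 111 in *Atf3*, while in *Trib3* it is base 14 of the transcript. A match describes letters and not a bound site, and the windows of *Atf4*, *Ddit3*, *Gdf15*, *Psat1*, *Shmt2* and *Mthfd2* simply lack these letters. *Atf3* was the only gene of the wider pathway with at least a 2-fold difference and an unadjusted p under 0.05 (limma, below). Stretches of the other genes of that pathway are not shown, so nothing about the difference of *Atf3* is read from its letters.

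After 12 weeks of MYTHO-KD, none of the 10 genes passed the test over all probe sets. In limma's moderated test, 0 had an adjusted p under 0.05, where 0.275% of all probe sets did (0.18% higher and 0.0946% lower in MYTHO-KD). The study's own limits, at least 2-fold and an unadjusted p under 0.05, were applied to the p-values of this moderated test. By them 0 were called as well, where 1.12% of all probe sets were (0.86% higher and 0.257% lower). At an unadjusted p under 0.05 alone, 2 of the 10 were higher in MYTHO-KD, the mitochondrial folate enzymes *Shmt2* and *Mthfd2*, and 0 were lower. Over all probe sets 6.48% were higher and 5.52% lower by that measure, 12% in all. By sign, 6 of the 10 averages were higher in MYTHO-KD, 3 were lower and that of *Gdf15* was equal. The median log2 difference was 0.04, beside -0.01 over all probe sets, whose middle 50% lay between -0.19 and 0.17. For 8 of the 10 genes the 95% confidence interval of the difference stayed inside 2-fold in either direction. The exceptions were *Chac1* and *Shmt2*, and 89.2% of all probe sets had such an interval. In whole muscle, a change in the number of cells of a type and a change of RNA per cell cannot be told apart.

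**Figure D1:**
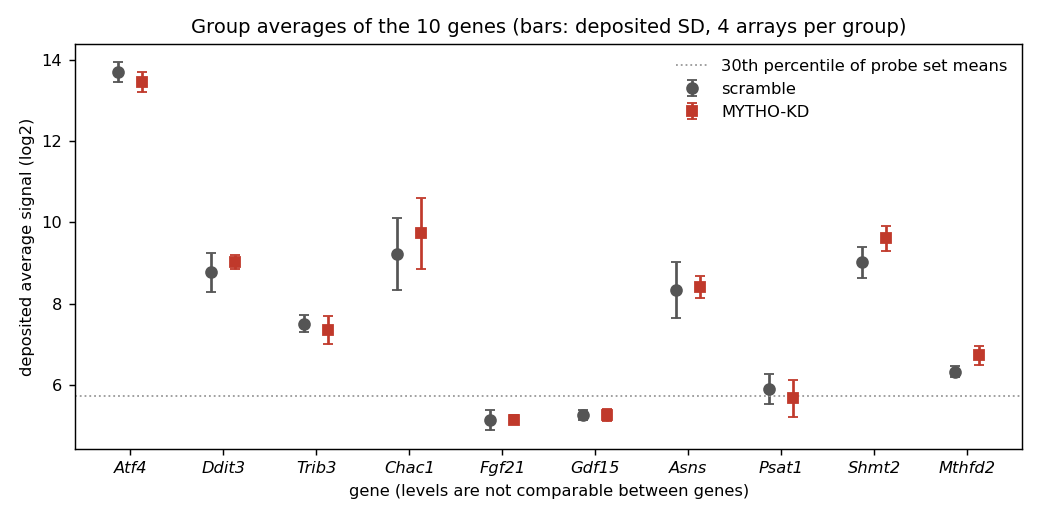
Deposited average log2 signal of each of the 10 genes in scramble (grey circles) and MYTHO-KD muscles (red squares), with bars of 1 deposited SD over 4 arrays and a dotted line at the 30th percentile of all probe set means. The bars of the groups overlap except in Mthfd2, whose averages were 6.32 and 6.72; Fgf21 and Gdf15 lie under the dotted line in both groups.

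Markers of other cells moved in the same muscles. All 10 macrophage markers were higher in MYTHO-KD, where 10416 of the 22206 probe sets were higher and 11412 lower. At an adjusted p under 0.05, 2 of the 10 were higher, where 0.18% of all probe sets were. These were *Cd68* (2.53, adjusted p = 0.0182, limma) and *Lyz2* (1.94, adjusted p = 0.0277). The summed signal of the macrophage markers was 11.03 (log2) in scramble and 12.27 in MYTHO-KD. All 8 fibroblast markers were higher as well, led by *Bgn* (1.94, adjusted p = 0.0290, limma) and *Lum* (1.49, adjusted p = 0.0443), with a median log2 difference of 1.09. Their summed signal, 16.67 (log2) in scramble and 17.06 in MYTHO-KD, is mostly that of the bright *Dcn* (16.58 and 16.86). In both groups every marker of these lists lay above the dimmest 30% of probe sets, the lowest being *Itgam* at 6.10 in scramble. The SD was larger in MYTHO-KD for *Cd68* (0.88, against 0.20 in scramble) and *Bgn* (0.71, against 0.14). With variances not moderated, and with unequal variances, 0 of all probe sets were higher at an adjusted p under 0.05. The calls of *Cd68*, *Lyz2*, *Bgn* and *Lum* are therefore absent in those settings. Macrophages and fibroblasts also express *Shmt2*, *Mthfd2* and *Atf3*, and the part of these cells in the differences of the 3 genes was not tested.

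*Shmt2*, on chromosome 10 from 127517123 to 127522444 (mm10), encodes the mitochondrial serine hydroxymethyltransferase, which takes a carbon unit from serine and passes it to folate. Its average was 9.02 in scramble and 9.61 in MYTHO-KD, with deposited SDs of 0.38 and 0.31, so that the averages lay further apart than either SD. The log2 difference was 0.59 with a 95% interval from 0.10 to 1.08, which corresponds to 1.51-fold and to an interval from 1.07-fold to 2.11-fold. Its unadjusted p was 0.0222 and its adjusted p 0.323 (limma). The next step of the same route is run by *Mthfd2*, on chromosome 6 from 83305691 to 83317606, a mitochondrial dehydrogenase and cyclohydrolase that is low in most resting adult tissues and a well known target of ATF4. Its average was 6.32 in scramble and 6.72 in MYTHO-KD, with SDs of 0.14 and 0.24. The log2 difference of 0.40 had a 95% interval from 0.02 to 0.78 (1.32-fold, from 1.02-fold to 1.71-fold), an unadjusted p of 0.0389 and an adjusted p of 0.385 (limma).

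The related genes of both enzymes showed smaller differences. *Shmt1*, the cytosolic form of the serine enzyme, had a log2 difference of 0.13 (adjusted p = 0.849, limma). *Mthfd2l*, the mitochondrial relative of *Mthfd2* found in adult tissues, had a log2 difference of 0.17 (adjusted p = 0.780, limma). Whether the members differed from these relatives was not tested, because the spread that genes share across muscles is lost in group averages.

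Amino acid synthesis was represented by *Asns* and *Psat1*. *Asns*, on chromosome 6 from 7675169 to 7693254, encodes asparagine synthetase and is the textbook target of ATF4 under amino acid shortage. Its average was 8.34 in scramble and 8.41 in MYTHO-KD, and its SD was larger in scramble (0.69) than in MYTHO-KD (0.27). The log2 difference of 0.07 had a 95% interval from -0.58 to 0.72 (adjusted p = 0.964, limma). *Psat1*, on chromosome 19 from 15904678 to 15947337, encodes the aminotransferase of serine synthesis. It averaged 5.89 in scramble and 5.66 in MYTHO-KD with SDs of 0.38 and 0.46. The log2 difference was -0.23 with an interval from -0.79 to 0.33 (adjusted p = 0.792, limma). Its sign was opposite to those of *Shmt2* and *Mthfd2*, which act downstream of serine, and the averages differed by less than either SD. The signal of *Psat1* was also low, with 31.3% of probe sets dimmer, so nothing is read from that sign.

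**Figure D2:**
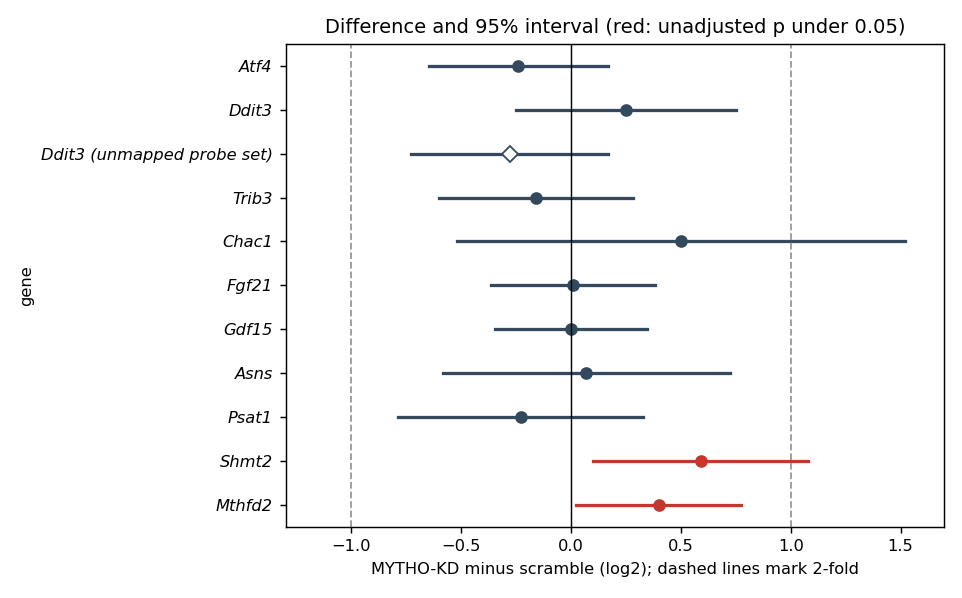
Log2 difference between MYTHO-KD and scramble (points) with its 95% confidence interval from limma's moderated test (lines), for the 10 genes and the second probe set of Ddit3 (open diamond); red marks an unadjusted p under 0.05. The intervals of Shmt2 (0.10 to 1.08) and Mthfd2 (0.02 to 0.78) lie above 0, and that of Chac1 is the widest, from -0.52 to 1.52.

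The transcription factors *Atf4* and *Ddit3* and their regulator *Trib3* did not pass the test. *Atf4*, on chromosome 15 from 80255184 to 80257545, encodes the central factor. Its average was 13.71 in scramble and 13.47 in MYTHO-KD with SDs of 0.24 and 0.25, and the log2 difference of -0.24 had an interval from -0.65 to 0.17 (adjusted p = 0.676, limma). *Ddit3*, on chromosome 10 from 127290774 to 127296288, encodes CHOP, a factor induced by ATF4 that favours cell death under lasting stress. Its mapped probe set averaged 8.77 in scramble and 9.02 in MYTHO-KD, with SDs of 0.48 and 0.17 (log2 difference 0.25, interval from -0.25 to 0.75, adjusted p = 0.737, limma). The second probe set, to which the table gives no position, pointed the other way. It averaged 7.79 in scramble and 7.51 in MYTHO-KD, with SDs of 0.32 and 0.27 (log2 difference -0.28, interval from -0.73 to 0.17, adjusted p = 0.651, limma). Neither passed, and the mean of the differences of both was -0.015, so no direction can be given for *Ddit3*. *Trib3*, on chromosome 2 from 152337422 to 152344060, encodes a pseudokinase that holds back ATF4 and CHOP. It averaged 7.50 in scramble (SD 0.21) and 7.34 in MYTHO-KD (SD 0.35), and the log2 difference was -0.16 with an interval from -0.60 to 0.28 (adjusted p = 0.826, limma).

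*Chac1*, on chromosome 2 from 119351229 to 119354381, encodes an enzyme that breaks down glutathione and is among the most inducible targets of the ATF4 and CHOP pathway. It stood apart by its spread. The deposited SDs were 0.89 in scramble and 0.88 in MYTHO-KD, and 0.437% of all probe sets had a larger pooled SD. The averages of 9.23 and 9.73 gave a log2 difference of 0.50 with an interval from -0.52 to 1.52, so that values from 0.70-fold to 2.87-fold lie within the error (adjusted p = 0.742, limma). A 2-fold rise lies inside that interval, and so does no difference. Its relative *Chac2*, another enzyme that degrades glutathione, had a log2 difference of 0.04 with SDs of 0.21 and 0.35.

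The secreted factors of the muscle stress response were the most alike between groups in their averages. *Fgf21*, on chromosome 7 from 45613890 to 45615490, encodes a metabolic hormone made by the liver and by stressed muscle. Its average was 5.12 in scramble (SD 0.25) and 5.13 in MYTHO-KD (SD 0.11), and the log2 difference was 0.01 with an interval from -0.36 to 0.38 (adjusted p = 0.990, limma). *Gdf15*, on chromosome 8 from 70629393 to 70632456, encodes a hormone that lowers appetite through a receptor in the hindbrain. It averaged 5.25 in both groups, with SDs of 0.13 and 0.15 and an interval from -0.34 to 0.34. These were the only 2 of the 10 genes whose intervals stayed inside 1.5-fold. Both were dim, with means under 5.715 (log2), below which the dimmest 30% of probe sets lie; 18.0% of probe sets were dimmer than *Fgf21* and 20.5% dimmer than *Gdf15*. At such signals an array can hardly show a fall. Among their receptors, *Fgfr1* to *Fgfr4*, *Klb*, *Gfral* and *Ret*, 0 had an unadjusted p under 0.05 and the lowest adjusted p was 0.432, that of *Ret* (log2 difference 0.48), followed by *Gfral* (0.37, adjusted p = 0.661, limma).

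**Figure D3:**
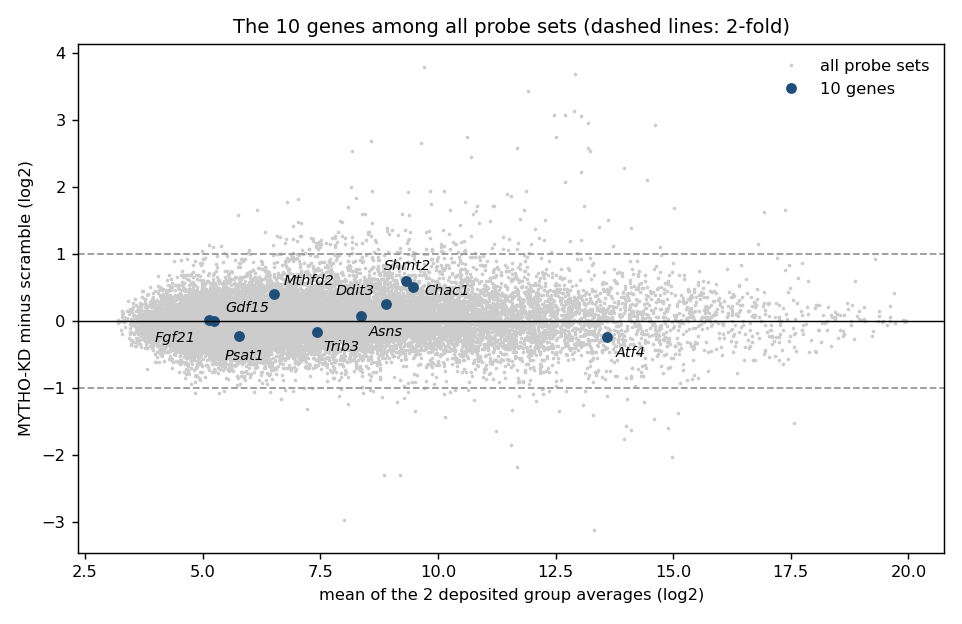
Log2 difference between MYTHO-KD and scramble against the mean of the deposited group averages, for all 22206 probe sets (grey) and the 10 genes (blue). The 10 genes lie between -0.24 and 0.59, inside the cloud and within the dashed lines at 2-fold.

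The 10 genes sit in a wider pathway, which was described with 12 gene lists holding 128 genes, all found in the table. Of these, 63 were higher in MYTHO-KD, 63 were lower and 2 were equal, with a median log2 difference of 0.00. In limma's test 0 of the 128 had an adjusted p under 0.05, while 11 were higher and 7 lower at an unadjusted p under 0.05, or 14.1% of them against 12% of all probe sets. *Atf3* alone met the 2-fold limits, which is 0.781% of the 128 genes beside 1.12% of all probe sets. Nothing is read from this count. *Atf3* encodes a stress factor that ATF4 can induce and that also responds to growth signals and injury. It averaged 7.87 in scramble (SD 0.69) and 9.33 in MYTHO-KD (SD 0.39), for a log2 difference of 1.46 (standard error 0.315, unadjusted p = 0.0006, adjusted p = 0.0888, limma). With a variance trend and robust fitting the adjusted p was 0.0384, and it ran up to 0.463 in the other settings. The other 9 factors and stress regulators of that list had log2 differences from -0.15 to 0.54, the highest that of *Stc2*, and *Atf5*, the relative of ATF4 tied to mitochondrial stress, stood at 0.33 (adjusted p = 0.476, limma).

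Upstream of ATF4, the 16 genes for eIF2 kinases, their partners, eIF2 and its exchange factor eIF2B had a median log2 difference of -0.10. The lowest p-values belonged to *Eif2s2*, the beta subunit of eIF2 (log2 difference -0.49, SDs of 0.06 and 0.10, adjusted p = 0.202, limma), and *Eif2b1*, the alpha subunit of eIF2B (-0.66, adjusted p = 0.268). The 4 kinases lay between -0.20 for *Eif2ak1*, the sensor of heme and of mitochondrial signals, and 0.14 for *Eif2ak2*, the sensor of double-stranded RNA. The mitochondrial relay and chaperones, 8 genes, had a median of 0.215. *Hspd1*, the mitochondrial chaperonin HSP60, stood at 0.83 (from 12.85 in scramble to 13.68, adjusted p = 0.154, limma), whereas *Clpp*, a protease of the matrix, stood at -0.44 (adjusted p = 0.307) and *Hspe1*, the partner of HSP60, at 0.07. *Dele1*, which carries the mitochondrial signal to the kinase and is listed under the older symbol *0610009O20Rik*, stood at 0.41 (adjusted p = 0.510, limma).

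**Figure D4:**
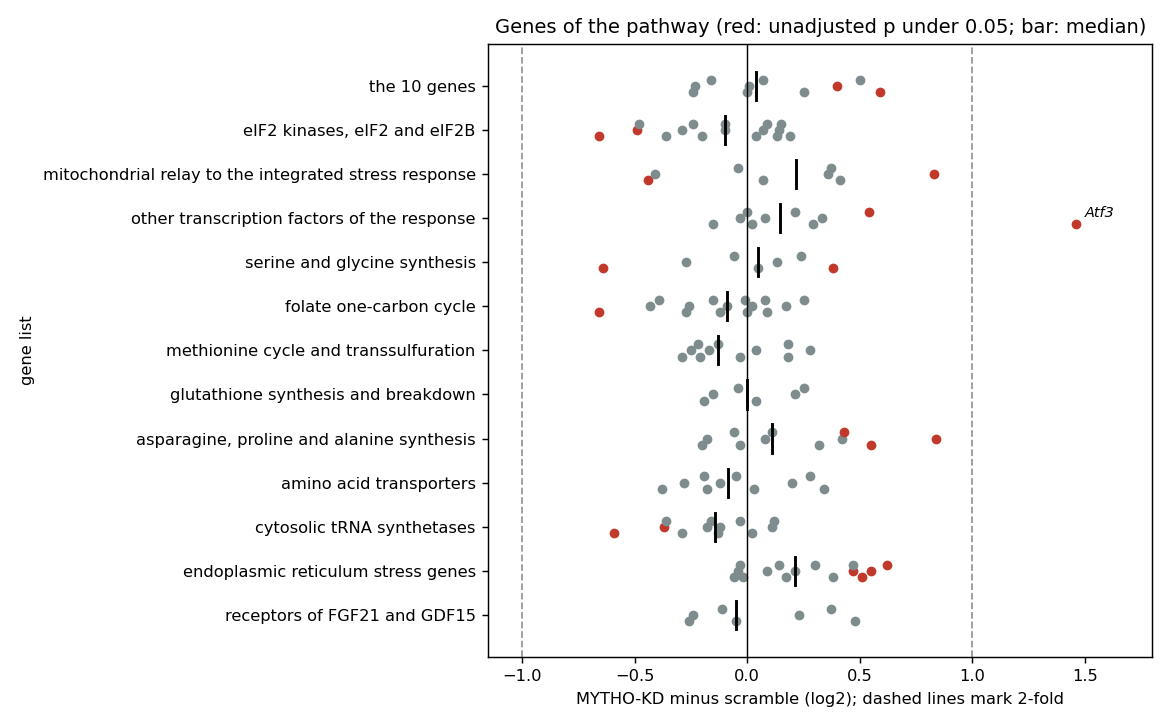
Log2 difference between MYTHO-KD and scramble for the 10 genes and for each gene of 12 lists of the pathway (points), with the median of each list (black bar); red marks an unadjusted p under 0.05 and dashed lines mark 2-fold. Medians lie between -0.145 and 0.215, and Atf3, at 1.46, is the one gene beyond 2-fold.

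In the metabolic lists around the 10 genes no gene passed the adjusted limit, and those nearest to it had both signs. Of 7 serine and glycine genes, *Psph*, the last enzyme of serine synthesis, stood at -0.64 (adjusted p = 0.362, limma) and *Gcsh*, the carrier protein of glycine cleavage, at 0.38 (adjusted p = 0.407). *Phgdh*, the first enzyme of serine synthesis and a classic partner of *Psat1*, stood at 0.05. Among 15 folate cycle genes the median was -0.09, with *Ggh*, which trims folate tails in the lysosome, at -0.66 (adjusted p = 0.245, limma). None of the 11 genes of the methionine cycle and transsulfuration and none of the 6 of glutathione synthesis and breakdown had an unadjusted p under 0.05; *Mat2b* (-0.29), *Gnmt* (0.28), *Gclc* (0.25) and *Gclm* (0.21) came nearest.

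Of 11 genes for the synthesis of other amino acids, 3 were higher at an unadjusted p under 0.05 and 0 lower, where 6.48% and 5.52% of all probe sets were; with so few genes nothing is read from this count. *Got1*, the cytosolic aspartate aminotransferase, stood at 0.84 (adjusted p = 0.289, limma) and *Gpt*, an alanine aminotransferase, at 0.55 (adjusted p = 0.307), neither of them past the adjustment. The 10 amino acid transporters held no gene at an unadjusted p under 0.05, with *Slc3a2*, the shared heavy chain of several exchangers, at -0.38 (adjusted p = 0.421, limma) and *Slc38a2* at -0.28. Of 12 cytosolic tRNA synthetases, 9 were lower and 3 higher, with a median of -0.145, where 11412 of all probe sets were lower and 10416 higher. *Iars* stood at -0.59 (adjusted p = 0.154, limma) and *Sars* at -0.37 (adjusted p = 0.413). The 15 genes of endoplasmic reticulum stress had 11 averages higher and 4 lower with a median of 0.21. At an unadjusted p under 0.05, 4 were higher and 0 lower, where 6.48% and 5.52% of all probe sets were. None passed the adjustment, and nothing is read from this count either. The lowest p-values were those of *Hyou1* (0.62, adjusted p = 0.255, limma) and *Dnajc3* (0.51, adjusted p = 0.325), both folding helpers of the reticulum.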

How the data were processed

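Clariom S Mouse arrays of 4 scramble and 4 MYTHO-KD muscles were analysed. The paper's methods name the default settings of the Transcriptome Analysis Console and SST-RMA, while the submitters' processing notes name Affymetrix Expression Console and RMA. These methods correct background, bring arrays to a common distribution and summarize probes on the log2 scale, and SST-RMA also stretches low signals, which affects fold changes. The authors deposited, per probe set (mm10), 1 log2 average and 1 SD per group with a decimal comma, and flags of expression. The kind of average is not stated. Their fold changes and p-values were in the table and were not used. No columns of single arrays were left unused (0). Arrays have no depth, 4 per group limit the precision, and p-values measure the spread between these muscles. The scramble virus was given to the opposite leg, so the groups may share mice, which the labels do not say. Where they do, the test, which treats the groups as independent, leaves the spread between mice in its error. Its intervals may then be wider than those of a paired test.

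From the averages and SDs, limma 3.58.1 in R 4.3.3 gave a moderated test: the group variances were averaged (6 residual degrees of freedom) and moderated by squeezeVar (prior SD 0.284, prior degrees of freedom 5.85). P-values are two-sided, with Benjamini-Hochberg adjustment over 22206 probe sets, and intervals are at 95%. If the averages are not plain means, p-values may be too low and intervals too narrow. A 2-fold call takes its limits from the paper's methods (2-fold or more, unadjusted p under 0.05). Its p-values are those of the moderated test, so its counts can differ from the paper's. The test was checked on simulated arrays. With several probe sets per gene, the one with the highest mean was used. Of each list, genes past a call are named, otherwise the 2 with the lowest p; for marker lists, the 2 with the largest difference; some genes that this rule names are not reported here; further names illustrate roles and were chosen after their values were seen. The members, lists and tests were chosen with earlier results of these data known. Alternatives were variances without moderation, unequal or with a trend and robust fitting, dim probe sets left out (30th percentile), probe sets naming 1 gene, centring, 1.5-fold, the mean of probe sets and shorter promoter letters. Promoter windows are RefSeq's (GRCm38.p6).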

Additional observations from a re-analysis of the deposited data

How the results depend on the processing

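No paired analysis was possible because the table holds 1 average and 1 SD per group; for the same reason no array could be left out. Of 58 tests recomputed for the 10 genes, 58 had an adjusted p over 0.05, as before, and the lowest adjusted p was 0.267, for *Shmt2* with dim probe sets left out. That setting keeps 8 of the 10 genes, with a median log2 difference of 0.16 in place of 0.04. With the mean of all probe sets of a gene, which has no test, the median was 0.005 and *Ddit3* went from 0.25 to -0.015. At an unadjusted p under 0.05 the count of higher genes fell from 2 to 1 in each of 3 settings: without moderation and with unequal variances (*Mthfd2* alone) and with a trend and robust fitting (*Shmt2* alone). At 1.5-fold 1 gene was called higher, *Shmt2*. In the pathway lists 1.5-fold called 4 higher and 4 lower in place of 1 and 0, and a trend with robust fitting gave 1 higher gene at an adjusted p under 0.05, *Atf3*. Over all probe sets the 40 higher and 21 lower calls at an adjusted p under 0.05 became 0 and 2 without moderation, 0 and 2 with unequal variances and 115 and 74 with a trend and robust fitting; 1.5-fold turned 191 higher and 57 lower calls into 787 and 500. The other 100 counts stayed within 1.5 times. Low signal limits what can be seen of *Fgf21* and *Gdf15*.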

Other observations

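The remaining marker lists give the setting of the 10 genes. All 6 endothelial markers were higher in MYTHO-KD (median log2 difference 0.45), led by *Kdr* (0.75, adjusted p = 0.190, limma) and *Eng* (0.64, adjusted p = 0.364), and 2 of the 6 had an unadjusted p under 0.05, where 6.48% of all probe sets were higher by that limit, but 0 an adjusted one. All 7 lymphocyte markers were lower (median -0.23), with *Cd3d* at -0.32, and 0 had an unadjusted p under 0.05. Of 6 adipocyte markers 5 were lower, with *Cfd* at -0.78 and *Retn* at -0.75, against deposited SDs of *Cfd* of 2.03 in scramble and 1.64 in MYTHO-KD. Of 10 liver markers 7 were higher and 3 lower. *Alb* stood at 2.66 (adjusted p = 0.291, limma), with deposited SDs of 1.34 in scramble and 2.28 in MYTHO-KD. *Serpina1c* stood at 1.16 (adjusted p = 0.599, limma), with SDs of 1.29 in scramble and 1.64 in MYTHO-KD. The 3 lower were *Apob* (-0.38), *Cyp2e1* (-0.28) and *Cps1* (-0.09). In 5 of the 10 the mean signal was under 5.715 (log2), and nothing is read from the count. *Fgf21*, which the liver also makes, differed by 0.01. Of 10 fibre markers 3 were at the top of the scale in both groups and could show no difference. Of the other 7, *Myh7*, the slow myosin, stood at -0.73 with SDs of 1.30 in scramble and 3.26 in MYTHO-KD. *Myh1* stood at 0.59 (adjusted p = 0.230, limma) and *Myh2* at 0.41 (adjusted p = 0.315, limma). *Myh2* averaged 19.50 in scramble (SD 0.16) and 19.91 in MYTHO-KD (SD 0.01), where the scale ends at 19.93. Its difference and its SD in MYTHO-KD may be held down by that limit, so neither can be taken at face value. The paper reports lower *Myh2* after MYTHO-KD by RT-qPCR in another muscle, the tibialis anterior. The reason for the opposite sign was not tested.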
